A study of Mus musculus with 16 samples.

Results

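Glycolysis splits glucose into pyruvate in the cytosol, and the enzyme genes of this route are, with the glucose transporter gene Slc2a1, the growth factor gene Vegfa and the mitophagy receptor gene Bnip3, classical targets of the hypoxia-inducible factors (HIFs). These transcription factors are held down in oxygen by prolyl hydroxylases and the Vhl ubiquitin ligase, and when oxygen is low they bind a short DNA core and raise glucose uptake, lactate production and vessel growth. Midgestation mouse embryos rely heavily on glycolysis and pass through a period of low oxygen before the circulation and placenta are in full use.

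Transcript levels of 10 glycolysis and hypoxia genes, chosen by their platform gene symbols (Slc2a1, Hk2, Pfkl, Pfkp, Aldoa, Eno1, Ldha, Pdk1, Vegfa and Bnip3), were examined on all 16 arrays. Of these, 9 had at least 1 probe, 14 probes in all among 25697 on the array. The 16 arrays held total RNA from embryos of the inbred FVB/n strain dissected at embryonic day (E) 9.5, 1 array per sample, hybridized to Illumina MouseRef-8 BeadChips. There were 4 groups of 4 arrays: Smchd1 MommeD1/MommeD1 females, Smchd1 MommeD1/MommeD1 males, and wildtype (Smchd1+/+) females and males from matings of heterozygous parents. MommeD1 is a chemically induced nonsense allele of Smchd1, the gene of a chromatin protein required for X inactivation, and the mutation was present in every cell of the embryo. Each of 2 chips carried 8 arrays, 2 of each group. All values are log2 expression values as deposited, a difference of 1 being a 2-fold change, and each probe was compared between samples on its own, since probes differ in how brightly they bind.

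Smchd1 itself, the check of the labels, stood at 9.91 ± 0.09 (SD, n = 4) in wildtype females against 7.48 ± 0.12 in MommeD1 females and at 9.82 ± 0.07 against 7.48 ± 0.10 in males, with no overlap. Probes above 7 on 4 or more arrays were tested, and the brightest of these represented its gene, which gave 6999 genes. The heart, somite and neural markers of the embryo were present (11 of 16 listed markers tested, mean level 9.08 to 9.37 over the arrays), and the trophoblast and decidual list had 3 of 9 tested, with its defining markers Tpbpa and Prl8a2 below 7 on every array. Yolk sac endoderm markers (6 of 14 tested) varied widely, with a score, the mean deviation of the list from its average, of -1.05 to 2.50 in MommeD1 females, -0.70 to 0.70 in wildtype females, -1.08 to 1.42 in MommeD1 males and -1.11 to 1.38 in wildtype males. In whole embryos fewer cells of a type and less RNA per cell cannot be told apart.

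Of the 14 probes 10 were kept, and they covered 8 genes. The only Bnip3 probe lay between 5.63 and 5.92 on all arrays, and no probe carried the symbol Eno1, so neither the mitophagy receptor gene nor the enolase gene gave a tested level. The probe that represented each of the other genes exceeded 7 on all 16 arrays, and of these the probe of Pfkp lay nearest to the filter, with values from 7.30 to 7.90.

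The promoters of Ldha, Pdk1 and Pfkp are shown because these genes had the lowest p-values of the 8 in the comparison of females. HIFs bind a short core in regulatory DNA, and the core alone does not make a gene a HIF target. Sequences are from RefSeq on the C57BL/6J assembly GRCm38.p6, read 5′ to 3′ along the gene, and are the 250 bases before an annotated start: chr7:46845554-46845803 (plus strand) for Ldha, chr2:71872974-71873223 (plus strand) for Pdk1 and chr13:6648772-6649021 (minus strand) for Pfkp. Capitals mark the HIF core ACGTG or GCGTG on either strand.
Ldha: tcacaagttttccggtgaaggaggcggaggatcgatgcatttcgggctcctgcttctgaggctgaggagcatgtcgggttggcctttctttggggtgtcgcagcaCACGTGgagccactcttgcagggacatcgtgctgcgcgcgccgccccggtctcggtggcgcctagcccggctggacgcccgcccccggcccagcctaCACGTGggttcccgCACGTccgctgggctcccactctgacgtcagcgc
Pdk1: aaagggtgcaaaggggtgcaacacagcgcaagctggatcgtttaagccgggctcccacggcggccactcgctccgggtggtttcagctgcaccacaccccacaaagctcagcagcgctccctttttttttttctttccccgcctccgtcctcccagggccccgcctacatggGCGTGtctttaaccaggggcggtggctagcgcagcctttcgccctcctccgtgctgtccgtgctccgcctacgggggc
Pfkp: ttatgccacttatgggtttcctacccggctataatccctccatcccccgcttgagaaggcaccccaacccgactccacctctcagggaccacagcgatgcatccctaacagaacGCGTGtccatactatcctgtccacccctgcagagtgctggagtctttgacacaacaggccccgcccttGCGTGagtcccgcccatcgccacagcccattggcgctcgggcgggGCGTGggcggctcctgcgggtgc
The stretch of Ldha held 5 matches at 3 places, because CACGTG reads ACGTG on both strands and counts once for each, and 2 such palindromes were present. Pfkp had 3 matches and Pdk1 had 1. Over the full windows of 300 bases, which run 50 bases past the start, the counts were 7 for Ldha, 4 for Pfkp and 2 for Pdk1. A second annotated window of Ldha held 2 matches, and the window of Bnip3, which gave no tested level, held 5. Of all 32851 such mouse windows, 43.8% held at least 1 match, 3.86% held 4 or more and 0.301% held 7 or more. All 10 genes had a window, and 14 of their 17 windows held a match, those without being a second Pdk1 window and the first windows of Aldoa and Vegfa. The 17 are not all separate stretches, since windows 2 and 3 of Eno1 overlapped, as did windows 2 and 3 of Aldoa. A match describes the letters alone, and HIF binding was not measured here.

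In the comparison of MommeD1 with wildtype females, which asks how embryos that fail X inactivation differ, Pdk1, Pfkp and Ldha had the largest differences of the 8 genes, each higher in the mutants by between 1.14-fold and 1.20-fold. None passed the threshold of an adjusted p of 0.05 in limma (Benjamini-Hochberg over all 6999 genes). The count called was 0 of 8, against 7.47% of all genes. At an unadjusted p under 0.05 it was 3 of 8, against 25.0% of all genes. The median log2 fold change of the 8 was 0.089, with 6 above 0, beside -0.0085 over all genes.

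**Figure D1:**
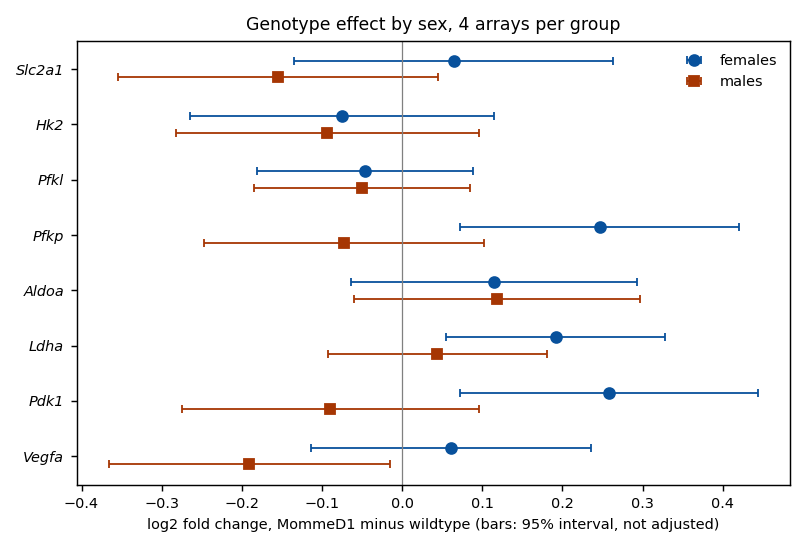
Log2 fold change of each gene, MommeD1 minus wildtype, in females (blue circles) and males (brown squares), with 95% intervals not adjusted for the number of genes. In females the intervals of Pfkp, Ldha and Pdk1 lie above 0, in males that of Vegfa lies below 0, and none passed the adjusted threshold.

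Ldha encodes the subunit of lactate dehydrogenase that turns pyruvate into lactate. Its values were 14.41, 14.29, 14.32 and 14.42 in MommeD1 females 1 to 4 and 14.25, 14.13, 14.16 and 14.15 in wildtype females. The lowest mutant female thus lay above the highest wildtype female, and Ldha was the only 1 of the 8 genes whose female groups did not overlap, where 15.1% of all genes did not. The difference was 0.19 ± 0.07 (SE, n = 4 against 4, adjusted p = 0.0747 in limma), 0.16 within chip 1 and 0.22 within chip 2. In males the MommeD1 values of 14.29, 14.24, 14.16 and 14.34 overlapped with the wildtype values of 14.38, 14.09, 14.23 and 14.15, and the difference was 0.04 ± 0.07.

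Pdk1 encodes a kinase that switches off pyruvate dehydrogenase and so keeps pyruvate out of the mitochondria. MommeD1 females had 9.36, 9.43, 9.52 and 9.13, and wildtype females 9.18, 9.20, 8.95 and 9.09. Only MommeD1 female 4 reached into the wildtype range. The difference of 0.26 ± 0.09 (SE, 1.20-fold) had an adjusted p of 0.0762 in limma and was 0.21 within chip 1 and 0.31 within chip 2. MommeD1 males had 9.26, 9.36, 9.07 and 9.16 and wildtype males 9.49, 9.18, 9.23 and 9.30, so that the ranges overlapped and the difference was -0.09 ± 0.09.

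Pfkp encodes the platelet type of phosphofructokinase, the enzyme of the first committed step of glycolysis. Its kept probe read 7.90, 7.60, 7.82 and 7.50 in MommeD1 females and 7.53, 7.53, 7.48 and 7.30 in wildtype females, so 3 of 4 mutant females exceeded every wildtype female. The difference was 0.25 ± 0.08 (SE, 1.19-fold, adjusted p = 0.0733 in limma), 0.22 within chip 1 and 0.28 within chip 2. Male values ran from 7.36 to 7.56 in MommeD1 and from 7.39 to 7.62 in wildtype, with a difference of -0.07 ± 0.08. The other Pfkp probes, with means of 6.83 and 5.68, were not kept and stood at -0.07 ± 0.09 and -0.0037 ± 0.07 in females in a fit of every probe, so the female difference rested on 1 of 3 probes.

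These differences were near the threshold and moved across it with single choices. Without MommeD1 female 4, Pfkp (0.31, adjusted p = 0.0338) and Pdk1 (0.33, adjusted p = 0.0321) passed in limma, while Ldha stood at 0.17 (adjusted p = 0.159). Without MommeD1 female 3, the array with the highest Pdk1 value, Pdk1 was at 0.21 (adjusted p = 0.194) and Pfkp at 0.21 (adjusted p = 0.173). All 6 tested yolk sac endoderm markers had a positive fold change in females (median 0.35, 0 called by limma and 0 at an unadjusted p under 0.05). Of the 11 embryo tissue markers tested, the heart genes Myl7 (0.56 ± 0.09, SE) and Actc1 (0.30 ± 0.07) rose in females and the limb mesenchyme gene Prrx1 fell by 0.41 ± 0.09 (adjusted p = 9.3e-04, 0.0181 and 0.0093 in limma), and their part in the differences of Pfkp, Ldha and Pdk1 was not tested. The 3 arrays highest in yolk sac endoderm markers were MommeD1 female 2, MommeD1 male 1 and wildtype male 3. Without them, the differences were 0.28 for Pfkp, 0.22 for Ldha and 0.23 for Pdk1, with adjusted p-values of 0.0892, 0.103 and 0.182 in limma.

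**Figure D2:**
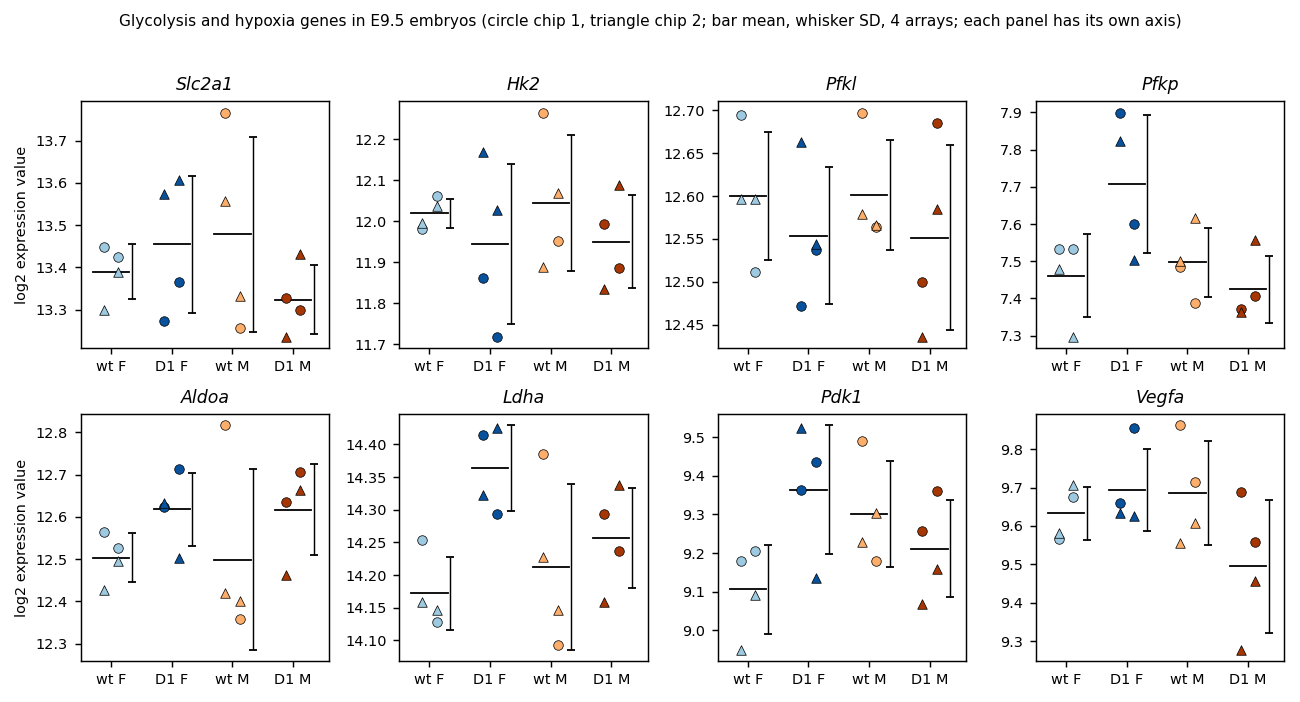
Log2 expression values of the kept, brightest probe of each gene on the 16 arrays, wt for wildtype, D1 for MommeD1, F for females and M for males, with circles for chip 1, triangles for chip 2, a bar for the group mean and a whisker for the SD (n = 4); each panel has its own axis, which does not start at 0. The female groups separate for Ldha alone, and 1 wildtype male stands at the top for Slc2a1, Hk2 and Aldoa.

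The other 5 genes showed smaller differences in females, none with an unadjusted p under 0.05. Aldoa, the muscle-type aldolase gene, was at 0.11 ± 0.09 (SE), and Slc2a1, the gene of the glucose transporter Glut1, and Vegfa, the gene of the main endothelial growth factor, were both at 0.06. Hk2, the gene of a hexokinase that phosphorylates incoming glucose, was at -0.07 ± 0.09, and Pfkl, the liver type of phosphofructokinase, at -0.05 ± 0.06. Hence Pfkl and Pfkp gave values of opposite sign. The 95% interval of Pfkl ran from -0.18 to 0.09, however, and that of Pfkp from 0.07 to 0.42. Pfkm, another phosphofructokinase gene, was at 0.05 ± 0.06 in females. A second kept Pfkl probe (mean 7.13) read 0.04 ± 0.09, and a second kept Vegfa probe (mean 7.69), which the platform ties to another transcript, -0.09 ± 0.08. Within chip 1 and chip 2 the female differences had opposite signs for Slc2a1 (-0.12 and 0.25) and Hk2 (-0.23 and 0.08). They also did for Vegfa (0.14 and -0.015) and Pfkl (-0.099 and 0.0066), while Aldoa was at 0.12 and 0.11.

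In males, which inactivate no X chromosome, 0 of 8 genes were called, against 0.114% of all genes, and 1 had an unadjusted p under 0.05, against 11.2%. The median was -0.081 with 2 of 8 above 0, beside 8.3e-04 over all genes. It was -0.023 without wildtype male 1 and -0.047 without MommeD1 male 3. The groups overlapped for all 8, where 6.32% of all genes did not overlap. The gene with the low p was Vegfa. MommeD1 males had 9.69, 9.56, 9.28 and 9.46 and wildtype males 9.86, 9.72, 9.56 and 9.61. The lowest values belonged to mutants and the highest to a wildtype male, but MommeD1 male 1 lay above 2 wildtype males. The difference was -0.19 ± 0.08 (SE, 1.14-fold lower, adjusted p = 0.408 in limma). It was -0.12 without MommeD1 male 3 (adjusted p = 0.742), -0.13 without wildtype male 1 (adjusted p = 0.649) and -0.30 without the 3 arrays highest in yolk sac endoderm markers (adjusted p = 0.131). The second kept Vegfa probe was at -0.01 ± 0.08 in males. All 9 tested primitive erythroid markers had a positive fold change in males (median 0.31). Of these 0 were called by limma and 1 had an unadjusted p under 0.05. Their part in the male differences was not tested.

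Slc2a1 gave 13.33, 13.30, 13.24 and 13.43 in MommeD1 males and 13.77, 13.26, 13.56 and 13.33 in wildtype males, a difference of -0.15 ± 0.10 (SE) that was -0.06 without wildtype male 1. The wildtype males spread more widely (SD 0.23) than the mutants (SD 0.08), and the lowest wildtype value lay inside the mutant range. Aldoa was the highest fold change in males at 0.12 ± 0.09. Its mutant values of 12.64, 12.71, 12.46 and 12.66 lay above those of wildtype males 2 to 4 (12.36, 12.42 and 12.40) and below that of wildtype male 1 (12.82). Without that array the male difference was 0.22 (adjusted p = 0.300 in limma). With both chips together, Hk2 (-0.09) and Pfkl (-0.05) gave male values close to their female values.

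Over both sexes the mean genotype effect called 0 of 8 genes, against 11.0% of all genes, and 1 of 8 had an unadjusted p under 0.05, against 27.3%. That gene was Ldha, at 0.12 ± 0.05 (SE, adjusted p = 0.105 in limma), followed by Aldoa at 0.12 ± 0.06 (adjusted p = 0.222). The median of the 8 was 0.020, beside -0.0038 over all genes, and it ran from 0.0016 (without MommeD1 female 3) to 0.044 (without wildtype male 1) when each array was left out. Without wildtype male 1 both passed in limma, Aldoa at 0.17 (adjusted p = 0.0305) and Ldha at 0.15 (adjusted p = 0.0409). That array thus decided whether 0 or 2 of the 8 genes were called.

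The difference between the female and the male genotype effect was positive for 7 of 8 genes, with a median of 0.18 beside -0.0058 over all genes, and 0 of 8 were called, against 0.357% of all genes. An unadjusted p under 0.05 was found for 3 of 8, against 7.93%. These were Pdk1 (0.35 ± 0.13, SE), Pfkp (0.32 ± 0.12) and Vegfa (0.25 ± 0.12), with adjusted p-values of 0.463, 0.472 and 0.620 in limma. For Aldoa (-0.0038 ± 0.12) and Pfkl (0.0039 ± 0.09) the effects of the sexes were nearly equal. The median of the 8 differences was 0.11 within chip 1, 0.18 within chip 2 and 0.11 without wildtype male 1. For the same comparison all 6 tested yolk sac endoderm markers were positive (median 0.42), and 1 of 9 primitive erythroid markers was (median -0.20). In limma 0 of either list were called, with 0 and 1 at an unadjusted p under 0.05. Their part in these differences was not tested.

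Wildtype females and wildtype males were compared to see whether sex alone moved these genes. In limma 0 of 8 were called, against 0.0714% of all genes, and 1 of 8 had an unadjusted p under 0.05, against 2.80%. This was Pdk1, lower in females at -0.20 ± 0.09 (SE, adjusted p = 0.999). The median was -0.039, with 1 of 8 above 0. Without wildtype male 1 the median was 0.012, so the sign of this small shift rested on that array, and it was -0.064 without wildtype male 2.

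Between chips, in a fit with the 4 groups as terms, 0 of 8 genes were called, against 2.59% of all genes, and 3 of 8 had an unadjusted p under 0.05, against 19.0%. The chips carried different embryos, so a difference between chips cannot be told apart from one between embryos. Vegfa (-0.14 ± 0.05, SE), Pdk1 (-0.13 ± 0.06) and Aldoa (-0.12 ± 0.05) were lower on chip 2, with adjusted p-values of 0.130, 0.238 and 0.250 in limma. Mean values of Aldoa and Pdk1 were lower on chip 2 in all 4 groups (2 arrays each), and those of Vegfa in 3, with 9.64 on chip 2 against 9.62 on chip 1 in wildtype females. A probe annotated to Eno1b, a near copy of the enolase gene that has Eno1 among its synonyms, is no member of the set by symbol. It was lower on chip 2 by more, at -0.37 ± 0.06 (adjusted p = 0.0110 in limma), and was at -0.04 ± 0.15 in females and -0.08 ± 0.15 in males for genotype.

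The 8 genes varied between embryos of the same group. The SD within groups had a median of 0.13 over the 8 genes, beside 0.10 over all genes, and Slc2a1 (0.15) was more variable than 86.9% of genes while Pfkl (0.08) and Ldha (0.09) were less variable than most. Wildtype male 1 had the highest value of the 16 arrays for 5 of the 8 genes, Slc2a1 (13.77), Hk2 (12.27), Pfkl (12.70), Aldoa (12.82) and Vegfa (9.86). It was the highest array for 7.27% of all genes. Its mean deviation over the 8 genes was 0.20. At the other end, MommeD1 male 3 lay below the mean for all 8 genes, with a mean deviation of -0.17. It was the lowest array for 3 of them, Slc2a1, Pfkl and Vegfa, against 5.69% of all genes.

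**Figure D3:**
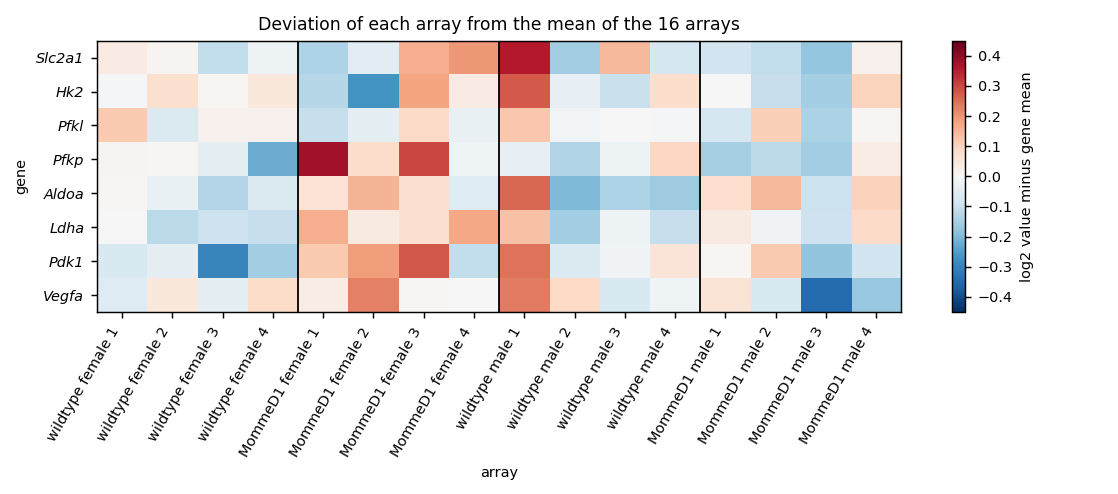
Deviation of each array (columns, by group) from the mean of the 16 arrays for each gene (rows), in log2 units, red for higher and blue for lower. Wildtype male 1 is above the mean for 7 of 8 genes, MommeD1 female 3 for 8 of 8 and MommeD1 male 3 for 0 of 8.

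Among females, the mean deviation over the 8 genes ran from 0.023 to 0.14 in MommeD1 and from -0.087 to 0.0049 in wildtype, as a description of genes already compared above. MommeD1 female 3 was above the mean for all 8 genes and MommeD1 female 4 for 4. In males the ranges were -0.17 to 0.012 in MommeD1 and -0.085 to 0.20 in wildtype, and they overlapped. The yolk sac endoderm score of wildtype male 1 was -0.85 and that of MommeD1 male 3 was -1.08, both low, while their primitive erythroid scores were -0.35 and 0.65, the lowest and the highest of the 16 arrays. Their part in the levels of the glycolysis and hypoxia genes was not tested.

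With the group means removed, most of the 8 genes tended to be high or low in the same embryos. Of 28 pairs of genes 26 had a Pearson r above 0 (median 0.38, n = 16 arrays), beside a median of 0.0021 and 50.2% above 0 over all pairs of tested genes. The closest pair was Aldoa and Pdk1 (r = 0.80, permutation p = 5.0e-04, adjusted over 28 pairs p = 0.0140, and Spearman's rho = 0.79, permutation p = 0.0014, adjusted p = 0.0400). It was 0.77 without the 2 arrays farthest from the median of Aldoa, 0.88 within chip 1 and 0.63 within chip 2. Slc2a1 and Ldha followed (r = 0.72, rho = 0.61, permutation p = 0.0194 and 0.0437, adjusted p = 0.136 and 0.266), but r was 0.44 without the 2 farthest arrays. In all, 6 of 28 pairs had an unadjusted permutation p of r under 0.05 and 1 passed after adjustment. Without wildtype male 1, a choice made after seeing the data, the median r was 0.24 and 21 of 28 pairs were above 0, while Aldoa and Pdk1 stayed at 0.82. Both negative pairs were of Pfkp, at -0.26 with Vegfa and -0.06 with Slc2a1, while its r with the other 5 genes ran from 0.10 with Pfkl to 0.37 with Pdk1.

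Outside the set, the 5 genes whose deviations were most alike the mean of the 8 genes over the 16 arrays were Bok (r = 0.82), Ubtd1 (0.80), Smtnl2 (0.78), Egln3 (0.77) and Prkcd (0.77). Egln3 encodes a HIF prolyl hydroxylase and Bok a relative of Bcl2. Wildtype male 1 was the highest of the 16 arrays for Bok (10.49), Ubtd1 (7.41), Smtnl2 (8.73) and Prkcd (8.65), though not for Egln3. The r values of these genes without that array were not computed. MommeD1 male 3 was at 7.75 for Smtnl2 and at 10.07 for Bok, where wildtype male 4 was lower at 10.01. Wildtype male 1 was also the highest array for 3 of 13 other glycolytic genes and 4 of 16 other HIF target genes tested. MommeD1 male 3 was highest for 3 of the 13 and 1 of the 16, and MommeD1 female 3 for 1 and 3. Over all genes, wildtype male 1, MommeD1 male 3 and MommeD1 female 3 were highest for 7.27%, 7.42% and 7.53%. These correlations are given as a description, since all points share the 16 libraries.

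Genes around this set were taken from 6 pathway lists. Other glycolytic enzymes and transporters had 13 of 25 genes tested and 0 called in any comparison by limma. Of all genes, 7.47% were called in females, 0.114% in males and 11.0% over both sexes. An unadjusted p under 0.05 was found for 1 in females, 1 in males and 0 over both sexes, against 25.0%, 11.2% and 27.3%. It was found for 3 in the difference between the sexes and for 3 between chips, against 7.93% and 19.0%. Their median was 0.047 in females and -0.027 in males. Over both sexes the list ran from -0.13 for Slc2a3, the gene of the glucose transporter Glut3, to 0.11 for Pfkfb2, the gene of an enzyme that sets the level of fructose 2,6-bisphosphate. Slc2a3 was at -0.32 ± 0.11 (SE) in males (adjusted p = 0.280) and 0.05 ± 0.11 in females.

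Other HIF target genes had 16 of 25 tested, and in females 2 rose and 1 fell in limma, 3 of 16 against 7.47% of all genes. An unadjusted p under 0.05 was found in females for 7 of 16, against 25.0%. Bhlhe40, the gene of a transcriptional repressor, rose by 0.32 ± 0.09 (SE, adjusted p = 0.0421), from a wildtype mean of 6.87 that lies under the filter value. Fam162a, a gene of a mitochondrial protein linked to cell death in hypoxia, rose by 0.32 ± 0.09 (adjusted p = 0.0387) with no overlap of the groups. Cited2, the gene of a protein that competes with HIF for its coactivators, fell by 0.40 ± 0.10 (adjusted p = 0.0191). The median of the 16 was 0.11 in females and 0.021 in males. In males 0 were called and 1 had an unadjusted p under 0.05, against 0.114% and 11.2% of all genes. None of the 3 differed between the sexes past the threshold in limma (adjusted p = 0.789, 0.675 and 0.428).

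These calls lay near the threshold and were lost when single arrays were left out, without a change of sign. Cited2 was lost when wildtype female 1 or 3 or MommeD1 female 1 or 2 was left out (adjusted p between 0.0512 and 0.0622), and Fam162a without MommeD1 female 1, 2 or 4 or wildtype female 3 or 4 (0.0606 to 0.118). Bhlhe40 was lost in females without any 1 of 8 arrays, wildtype females 1 to 4, MommeD1 females 1 to 3 and wildtype male 2 (0.0505 to 0.123). Over both sexes Bhlhe40 was at 0.23 ± 0.07 (SE, adjusted p = 0.0297 in limma), lost without wildtype female 1 or 2, MommeD1 female 2 or 3, MommeD1 male 2 or 3 or wildtype male 3 (0.0501 to 0.0635). The stress response gene Ddit4 was the highest of the list over both sexes at 0.23 ± 0.09 (adjusted p = 0.110). It was lower on chip 2 at -0.27 ± 0.07 (adjusted p = 0.0450), a call lost without any array but MommeD1 male 4 (0.0541 to 0.0907).

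**Figure D4:**
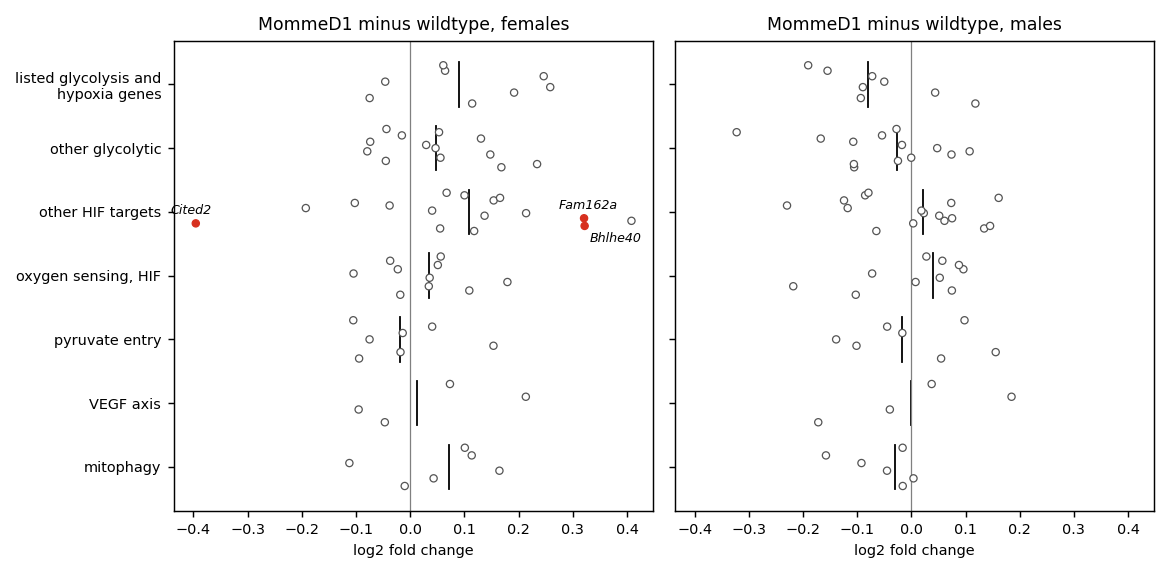
Log2 fold change, MommeD1 minus wildtype, of each tested gene in the set and in 6 surrounding lists, in females (left) and males (right), with a bar at the list's median and filled red points for genes past an adjusted p of 0.05 in limma. The red points are Bhlhe40, Fam162a and Cited2 in females, and there are none in males.

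Oxygen sensing and HIF factors had 10 of 16 tested and 0 called for genotype by limma, with 0 at an unadjusted p under 0.05 in females and 1 in males, and ran over both sexes from -0.092 for Egln2 to 0.094 for Egln3, both prolyl hydroxylase genes. Pyruvate entry to mitochondria, the step that Pdk1 restrains, had 7 of 14 tested and 0 called for genotype, from -0.11 ± 0.04 (SE) for Pdha1, the X-linked gene of the dehydrogenase subunit that Pdk1 phosphorylates, to 0.069 for Dlat. Mitophagy genes, the surroundings of Bnip3, had 6 of 8 tested and 0 called for genotype, from -0.10 for Gabarapl1 to 0.060 for the X-linked mitophagy receptor gene Fundc1. Of all genes, 7.47% were called in females, 0.114% in males and 11.0% over both sexes. At an unadjusted p under 0.05 in limma the shares were 25.0%, 11.2% and 27.3%. Between chips 1 gene of each of these lists was called in limma, against 2.59% of all genes. Eloc, a partner of Vhl, was at 0.21 ± 0.04 (adjusted p = 0.0177), Dld at -0.29 ± 0.07 (0.0305) and the autophagosome gene Map1lc3b at -0.26 ± 0.05 (0.0149). Dld was lost without wildtype male 1 or 4, wildtype female 2 or 3 or MommeD1 female 2 or 3 (0.0607 to 0.0708).

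Of the VEGF ligands and receptors other than Vegfa, 4 of 9 were tested. Over both sexes 1 of the 4 was called by limma, against 11.0% of all genes. This was Vegfb, the gene of a related ligand, which rose. It stood at 10.76 ± 0.05 (SD, n = 4) in MommeD1 females against 10.54 ± 0.20 in wildtype females, and at 10.72 ± 0.06 against 10.53 ± 0.04 in males, where the groups did not overlap. The effect was 0.20 ± 0.05 (SE, 1.15-fold, adjusted p = 0.0249 in limma), with 0.21 in females (adjusted p = 0.0872) and 0.18 in males (adjusted p = 0.375), and it passed in all 16 fits that left out 1 array. Vegfa over both sexes was at -0.06 ± 0.06, and the receptor gene Flt1, the lowest of the list, at -0.11 ± 0.07.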

How the data were processed

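The 16 arrays were Illumina MouseRef-8 v2.0 BeadChips. The authors processed the intensities in R with beadarray and limma (limma is also named in the submitters' processing notes) and deposited log2 values, which had equal minima (5.26) and medians of 6.34 on every array, the pattern that quantile normalization leaves. Background correction is not described in the methods or labels. Another 32 columns, of signals and detection p-values, carried numbers that could not be tied to samples and were not used, so that the log2 values took the place of a fit on raw signals. The number of arrays limits the precision.

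Probes were named through the platform annotation (23978 with 1 symbol, 0 with several and 1719 with none, of 25697). Of the named probes 23962 matched the gene table by gene ID. Of the 9785 probes kept, 559 had no gene. The test was limma 3.58.1 (R 4.3.3; lmFit, eBayes) on all 16 arrays with the 4 groups as terms (12 residual degrees of freedom), Benjamini-Hochberg adjustment over 6999 genes and a threshold of 0.05. In simulated data with 6999 genes for the comparison of females, 71.6% of changes of 0.3 and 91.0% of changes of 0.5 on the log2 scale were recovered. Smaller changes were not simulated, so these rates do not cover the female differences of Ldha (0.19), Pfkp (0.25) and Pdk1 (0.26). Nothing in the labels says that samples came from separate litters, so p-values measure the spread between these embryos. Correlations used values minus group means and 100000 permutations within groups, two-sided (Python 3.11.15, numpy 2.4.6).

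The members and all gene lists were chosen with earlier results of these data known. Named genes were all members with every probe, genes of the pathway lists past the threshold in any of 6 comparisons, the extremes of each list over both sexes, Smchd1, and the 5 genes most alike the mean of the members. Pfkm was named besides, as a phosphofructokinase gene next to Pfkl and Pfkp. Marker lists were yolk sac endoderm, primitive erythroid (9 of 12 tested, 0 called for genotype by limma, with 0 at an unadjusted p under 0.05 in females and 1 in males), trophoblast and decidual, and embryo tissue (2 higher and 1 lower in females, with 3 at an unadjusted p under 0.05). Alternatives were other filters on dim probes, every kept probe, blocks for replicate number and chip, each chip or sex alone, array weights, trended and robust moderation, recentred arrays, and leaving out each array.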

Additional observations from a re-analysis of the deposited data

Results flagged for a closer look

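In 44 groups of 4 values (the 10 kept probes of the glycolysis and hypoxia genes and the Eno1b probe, in each of the 4 groups), 3 held a sample far from the other 3, by a gap, as a share of the group's range, above Dixon's 95% critical value. Chance gives about 1 in 20 groups. For Pfkl, wildtype male 1 read 12.7 against 12.56 to 12.58 in the other wildtype males. For Aldoa, the same array read 12.8 against 12.36 to 12.42. For Vegfa, MommeD1 female 2 read 9.85 against 9.63 to 9.66 in the other MommeD1 females.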

How the results depend on the processing

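Of the counts of glycolysis and hypoxia genes called under the alternatives, 154 were the same as with the settings reported and 6 moved. In females the count of 0 became 1 with the chip as a block (Pdk1, adjusted p = 0.0473), 1 with array weights (Pfkp, 0.0479) and 1 with trended and robust moderation (Ldha, 0.0397), all in limma, and it ran from 0 to 2 when each array was left out. Over both sexes it ran from 0 to 2 when each array was left out. With the settings reported 0 of the 8 genes were called, so no call of theirs could change sign. Fold changes of genes not called did in places, as for Slc2a1 over both sexes, at -0.05 on all arrays and 0.0029 without wildtype male 1. The cause of the moved counts was not tested. The count over all genes in females was 523, and it was 287 with no filter, 25 and 42 on the arrays of chip 1 and chip 2 alone, 706 with a chip block, 409 with the female arrays alone and 326 without the 3 arrays highest in yolk sac endoderm markers, the last chosen after seeing the data. On the arrays of either chip alone, 0 of all genes had a genotype effect that differed between the sexes in limma, against 25 on all arrays. In females Cited2 passed in 21, Fam162a in 19 and Bhlhe40 in 15 of 27 alternatives, and over both sexes Vegfb in 23 and Bhlhe40 in 16 of 26, none with its sign changed. With the chip means removed too, the median r of the 28 pairs was 0.44.

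With the replicate number as a block, the count in females was 1 (Ldha, adjusted p = 0.0484 in limma). The numbers do not pair the samples: same-numbered arrays of different groups had deviations that correlated between -0.39 and 0.40 (median 0.055), and 4 of 16 arrays correlated best with one of their own number. Signal over background was not known, and the Bnip3 probe and the dimmest Pfkp and Vegfa probes (means of 5.78, 5.68 and 5.67) lay near the array minimum of 5.26, where a change may not be seen.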

Other observations

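Ak4, the gene of a mitochondrial adenylate kinase, and Ddit4, both HIF target genes, were also close to the mean of the 8 genes over the arrays (r = 0.76 and 0.73, ranks 6 and 13 of all genes outside the set). Neither is among the 5 most alike genes, and both were singled out here after their values were seen.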
